A study of Mus musculus with 4 samples.

Results

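The muscle acetylcholine receptor and the proteins that gather it at the neuromuscular junction are encoded by a small set of genes, of which 10 were followed here: the receptor subunit genes Chrna1, Chrnb1, Chrnd, Chrng and Chrne, and Agrn, Lrp4, Musk, Dok7 and Rapsn. Every probe set that the array annotation assigns to exactly 1 of them was taken, 14 of the 45101 probe sets on the array, and the 10 genes are among 18193 genes with such a probe set. RNA came from C2C12, an established line of mouse myoblasts that can be made to fuse into muscle fibres, and was measured on 1 Affymetrix expression array per culture. In 2 control cultures the stably integrated lentiviral vector pLKO.1 carried a control short hairpin RNA (shRNA), called scrambled in 1 label and shLuc in another, and in 2 knockdown cultures it carried shSFMBT1, against the chromatin protein gene Sfmbt1. All 4 cultures were myoblasts in medium with 20% fetal bovine serum and 2 ug/ml puromycin, the labels name no nerve cells, agrin treatment or switch to differentiation medium, and they name a single hairpin against Sfmbt1. The comparison asks whether the knockdown of Sfmbt1 moves the RNA of these genes in myoblasts kept in growth medium. The cultures were grown independently per the series text, which does not say whether they came from separate transductions. The p-values therefore cover these cultures only, and the spread they use is drawn in large part from other genes of similar level.

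The receptor is a ligand-gated cation channel that opens when acetylcholine binds and so starts the contraction of a muscle fibre. It is assembled from alpha, beta and delta subunits together with a gamma subunit in fetal muscle or an epsilon subunit in adult muscle. Agrin, secreted by the motor nerve and also made by muscle, binds LRP4 on the muscle surface, LRP4 activates the receptor tyrosine kinase MuSK, and DOK7 binds MuSK inside the cell and sustains its activity. Rapsyn, the product of Rapsn, ties receptors into clusters beneath the nerve ending. Myogenic transcription factors such as MyoD and myogenin activate receptor subunit genes as myoblasts differentiate.

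Each array's background limit, the 95th percentile over 27 control probe sets for bacterial RNA, lay between 42.9 and 69.3 signal units, and 56.2% to 67.6% of probe sets were above it. Sfmbt1 was lower in the knockdown by each of its 5 probe sets, although in probe set 1443853 all 4 arrays were under background. In the other 4 the knockdown mean was 17.4% to 69.2% of the control. In the tests described below, the brightest probe set, 1429749, did not pass among genes (log2 -0.54, adjusted p = 0.316), while 1422894, where 1 knockdown array was under background, passed among probe sets (adjusted p = 0.0219). All 6 myoblast markers, among them Myod1 and Des, were above background on all 4 arrays, with a summed signal of 13246 and 14699 on the control arrays, against 13136 and 13887 under knockdown. Of 6 markers of differentiated muscle 5 were called higher in the tests described below, against 1.44% of all genes tested. The other, Ckm, was not called (log2 0.38, limma adjusted p = 0.564). The summed signal of the 6 was 998.3 and 1294 in the control against 4555 and 4775 in the knockdown. Motor neuron markers summed to 3350 and 3401 on the control arrays, against 1825 and 1901 under knockdown. Most of that came from the neurofilament gene Nefl, which fell by 0.86 log2 units (limma adjusted p = 0.0012). Chat read 106.9 and 174.7 on the control arrays, both above background. The knockdown arrays read 41.2, under background, and 60.9 (log2 -1.21, limma adjusted p = 0.154). Slc18a3 and Mnx1 were above background on 2 arrays and Isl1 on 1, and Snap25 was under background on all 4 arrays. Of the 4 Schwann cell markers on the array, S100b was above background on 1 array and the other three on all of them, with sums of 882.8 to 1023 in the control and 782.9 to 830.3 in the knockdown. The part of these marker shifts in the results below was not tested.

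Chrnd was the 1 gene of the 10 that passed the test, and it was lower in the knockdown. It reached the test through its control arrays, since both knockdown arrays were under background, and it did not pass without the filter on dim probe sets (adjusted p = 0.0926). Signals were compared as log2(signal + 16) with limma across 12866 genes, each represented by its brightest probe set, and a gene was called when its Benjamini-Hochberg adjusted p was under 0.05. Of the 9 members bright enough to be tested, limma called 0 higher and 1 lower, and 2 had an unadjusted p under 0.05 (Chrnd and Chrnb1), as did 1933 (15.0%) of all genes tested. Over all genes tested 3.05% were called, 1.44% higher and 1.61% lower. The median difference of the 9 was -0.05 log2 units, against 0.01 over all genes, and 4 of the 9 were positive. The groups of arrays did not overlap in 5 of the 9, against 44.5% of all genes tested, with the knockdown above in 3 and below in 2, against 23.0% and 21.5%.

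**Figure D1:**
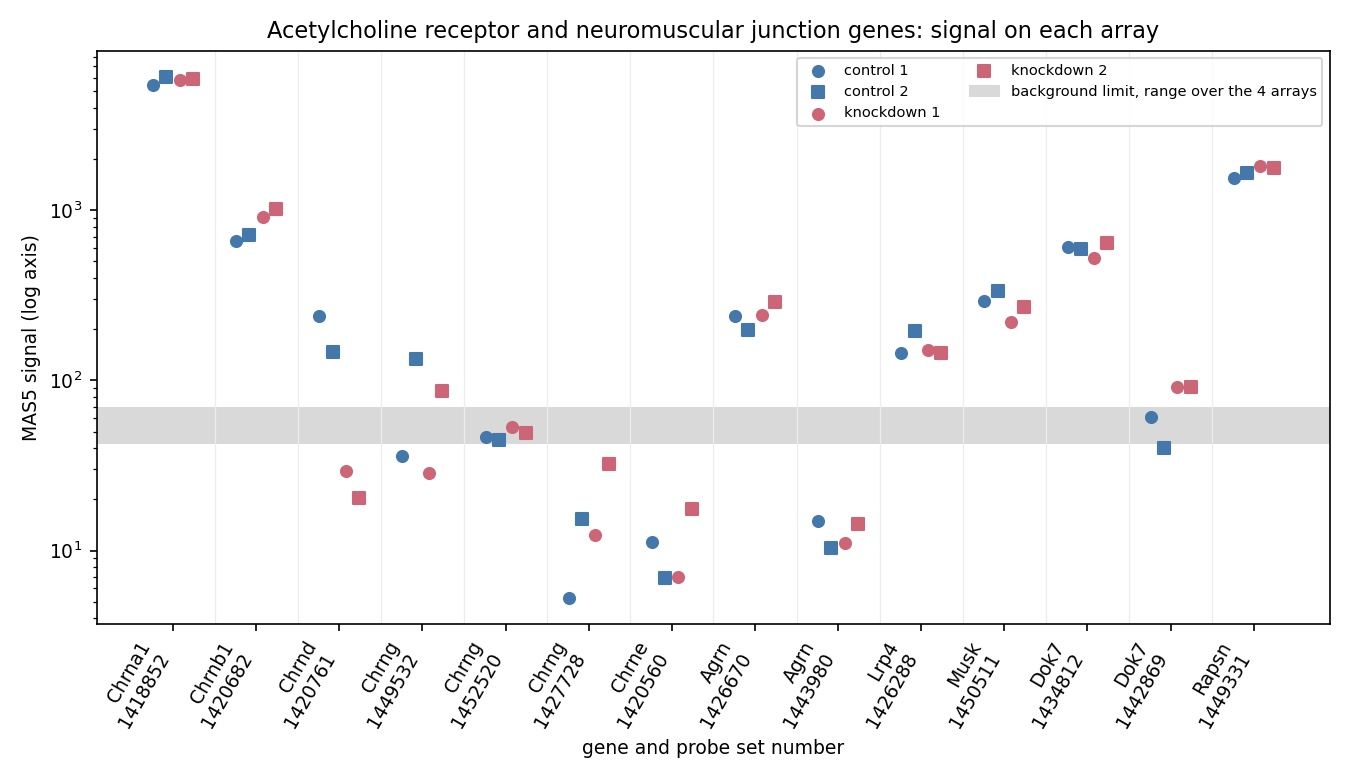
MAS5 signal (log axis) of each of the 14 probe sets, grouped by gene, on the 2 control arrays (blue) and the 2 knockdown arrays (red), circles for replicate 1 and squares for replicate 2; the grey band spans the background limits of the 4 arrays, 42.9 to 69.3. Chrnd passes from above the band in the control to below it in the knockdown, while Chrne and the second Agrn probe set lie below it on every array.

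The promoters of the receptor subunit genes are shown because myogenic factors are known to act on them. Myog, the gene of 1 such factor, rose in the same cultures. The arrays measure RNA and not binding, and a link between Myog and these genes was not tested. The 300-base windows are from RefSeq (GRCm38.p6), run from 250 bases before to 50 bases after an annotated transcript start, and are given 5′ to 3′ on the strand of the gene. Chrna1 is at chr2:73580289-73580588 on the minus strand, Chrnb1 at chr11:69795888-69796187 on the minus strand, Chrng at chr1:87205561-87205860 on the plus strand and Chrne at chr11:70619145-70619444 on the minus strand. Capitals mark each E-box, CANNTG, the general pattern that includes the sites of MyoD and myogenin. A match to this pattern on 1 strand is also a match on the other.
Chrna1: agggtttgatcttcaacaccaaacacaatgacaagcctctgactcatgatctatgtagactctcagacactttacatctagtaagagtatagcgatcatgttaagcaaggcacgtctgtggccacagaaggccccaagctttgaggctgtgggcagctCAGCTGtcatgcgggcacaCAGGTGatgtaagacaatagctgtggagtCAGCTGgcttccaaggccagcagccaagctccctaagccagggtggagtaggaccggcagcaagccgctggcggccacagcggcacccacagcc
Chrnb1: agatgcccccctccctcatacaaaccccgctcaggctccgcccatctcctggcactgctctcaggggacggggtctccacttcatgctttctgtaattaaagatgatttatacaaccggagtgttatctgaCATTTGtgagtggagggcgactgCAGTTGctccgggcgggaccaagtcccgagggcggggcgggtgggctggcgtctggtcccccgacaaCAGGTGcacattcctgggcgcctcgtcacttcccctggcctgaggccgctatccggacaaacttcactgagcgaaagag
Chrng: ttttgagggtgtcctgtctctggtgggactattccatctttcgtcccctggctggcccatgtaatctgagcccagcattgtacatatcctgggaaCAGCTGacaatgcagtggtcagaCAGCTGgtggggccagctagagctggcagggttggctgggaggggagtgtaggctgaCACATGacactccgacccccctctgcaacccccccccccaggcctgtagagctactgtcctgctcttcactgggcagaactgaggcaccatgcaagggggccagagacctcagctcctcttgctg
Chrne: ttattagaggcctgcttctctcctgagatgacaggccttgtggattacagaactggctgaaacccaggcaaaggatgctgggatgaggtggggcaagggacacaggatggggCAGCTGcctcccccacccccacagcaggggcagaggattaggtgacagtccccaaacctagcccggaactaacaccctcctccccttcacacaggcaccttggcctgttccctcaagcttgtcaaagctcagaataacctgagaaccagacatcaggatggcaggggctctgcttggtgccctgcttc

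A RefSeq window was found for 7 of the 10 genes, and Chrnd, Rapsn and Lrp4 had none in the table. The windows of Chrna1, Chrnb1, Chrng and Musk held 3 E-boxes each, a number that 17.6% of all 32851 windows of this length reach or exceed, while 72.3% hold at least 1. The form CAGCTG, a subset of these E-boxes, occurred at 92 and 44 bases before the start in Chrna1, at 155 and 132 in Chrng, at 138 in Chrne and at 68 in Musk, and 16.3% of all windows hold it. The E-boxes of Chrnb1, at 119, 96 and 29 bases before the start, were of other forms. The letters CCGGAA, searched on both strands and known as the core of the N-box to which the ETS factor GABP binds in synaptic genes, occurred in Chrne, 76 bases before the start, and in none of the other member windows, against 14.9% of all windows.

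Chrnd encodes the delta subunit. Its single probe set, 1420761, read 239.7 and 147.2 on the control arrays, and the knockdown arrays read 29.4 and 20.4. Both control arrays were above background and both knockdown arrays below it, so the groups did not overlap and the knockdown level is only a bound. With background in its place Chrnd was at least 2.88-fold lower on the log2(signal + 16) scale. The fitted difference was -2.33 log2 units (SE 0.44, 95% interval -3.26 to -1.40, limma adjusted p = 0.0083). The filter on dim probe sets lay at a signal of 57.3, above both knockdown values. The call was lost without control replicate 1, the brighter control array (log2 -2.01, adjusted p = 0.136), without the filter (adjusted p = 0.0926) and without a trend of variance on mean level (adjusted p = 0.1005). The difference was -1.51 with a pseudocount of 64 in place of 16 (adjusted p = 0.0054).

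Chrna1, which encodes the alpha subunit that carries the acetylcholine binding site, read 5456.5 and 6080.7 on the control arrays, and the knockdown arrays read 5858.6 and 5890.0 (probe set 1418852). The knockdown arrays lay between the control arrays. The difference was 0.03 log2 units (SE 0.12, adjusted p = 0.946), with a 95% interval of -0.22 to 0.27. Whether the change of Chrnd differed from that of Chrna1 was not tested.

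Chrnb1, the beta subunit gene, read 663.2 and 712.5 on the control arrays, and the knockdown arrays read 915.0 and 1017.3 (probe set 1420682). Both knockdown arrays were above both control arrays, with means of 687.9 ± 34.9 and 966.2 ± 72.3 (SD, n = 2 each), the second 140.5% of the first. The difference of 0.48 log2 units (SE 0.15, 95% interval 0.16 to 0.80) did not pass over all genes (limma adjusted p = 0.111). It passed when each array was centred on its median (0.52, adjusted p = 0.0337) and after quantile normalization (0.49, adjusted p = 0.0390). Under the 14 alternatives it ranged from 0.40 to 0.55, with adjusted p from 0.0337 to 0.445.

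Chrng, the gene of the fetal gamma subunit, has 3 probe sets, all close to background. Probe set 1449532, the one tested, read 36.2 and 133.5 on the control arrays, and the knockdown arrays read 28.5 and 86.9. The 2 arrays of each group differed more than the groups did, with replicate 2 above background and replicate 1 below it in both. The difference was -0.38 log2 units with a 95% interval of -1.64 to 0.87 (adjusted p = 0.832), and it was 0.37 without control replicate 2 and 0.22 without knockdown replicate 1. Probe set 1452520 read 46.5 and 44.7 on the control arrays, and the knockdown arrays read 53.1 and 49.4, with knockdown replicate 2 the only array above background. Probe set 1427728 read 5.3 to 32.2 and was under background on every array.

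Chrne, the gene of the adult epsilon subunit, was under background on all 4 arrays, the controls reading 11.3 and 6.9 and the knockdowns 7.0 and 17.6 (probe set 1420560). It did not reach the filter and was not tested. The array therefore gives no fold for the subunit that replaces gamma in adult muscle.

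**Figure D2:**
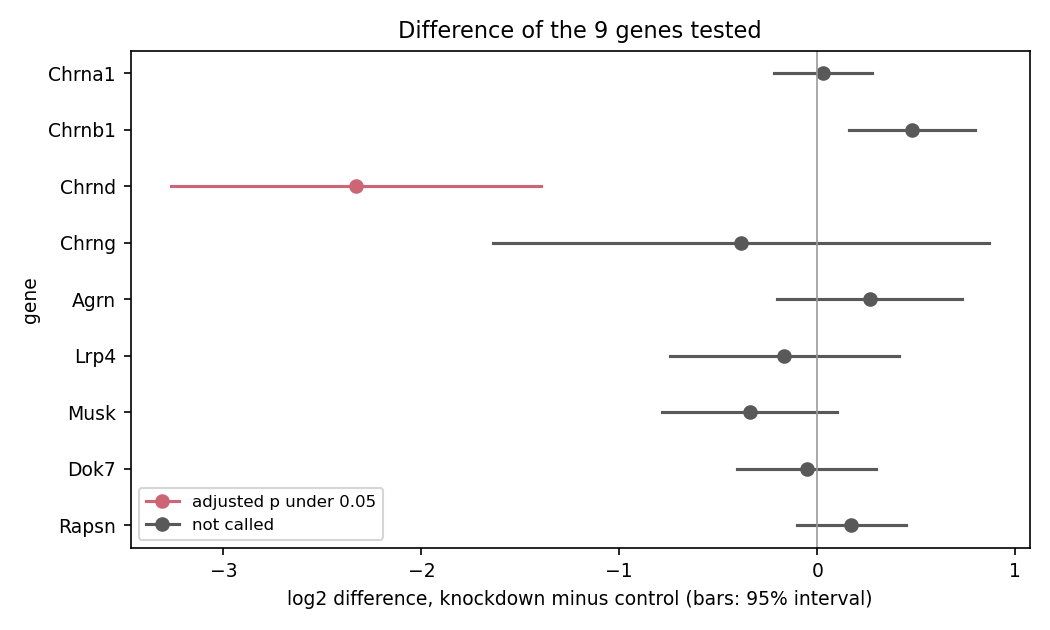
Log2 difference, knockdown minus control, of the 9 genes tested (points) with its 95% interval from the limma fit (bars), red where the adjusted p is under 0.05. The point of Chrnd, -2.33, rests on knockdown signals under background, where the level is only a bound, and the interval of Chrnb1, 0.16 to 0.80, lies above 0.

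Chrnd and Chrng are neighbours on the same chromosome in the RefSeq gene order. The 3 protein-coding genes of the array on either side of Chrnd were chosen after its values were known, and 0 of those tested were called. The share called among all genes tested was 3.05%, so 0 calls among so few genes tell little about the region. Akp3, an alkaline phosphatase gene 3 places before it, read 141.1 and 95.2 on the control arrays, and the knockdown arrays, both under background, read 64.2 and 33.4 (log2 -1.07, SE 0.45, adjusted p = 0.266). Ecel1 differed by 0.01 log2 units, Eif4e2 by -0.05 and Efhd1 by 0.02, with limma adjusted p of 0.907 to 0.993. Prss56, the gene next to Chrnd on the other side from Chrng, was under background on all 4 arrays and was not tested.

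The agrin pathway from ligand to scaffold gave 0 calls among 5 tested genes, where 3.05% of all genes tested were called. Agrn, the agrin gene, read 240.1 and 197.1 on the control arrays, and the knockdown arrays read 243.4 and 287.6 in probe set 1426670. The groups did not overlap, but by a margin of 240.1 against 243.4, and the difference was 0.26 log2 units (95% interval -0.20 to 0.73, adjusted p = 0.642). Its second probe set, 1443980, read 10.3 to 15.0, under background on every array. Lrp4, which encodes the agrin receptor, read 144.7 and 194.3 on the control arrays, and the knockdown arrays read 150.3 and 145.4. The groups overlapped, with a difference of -0.17 (95% interval -0.75 to 0.41, adjusted p = 0.848), and it was 0.03 without control replicate 2.

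Musk, the kinase gene, read 292.4 and 334.3 on the control arrays, and the knockdown arrays read 219.9 and 269.1. Both knockdown arrays were below both control arrays, at 78.0% of the control mean, but the difference of -0.34 log2 units (SE 0.21, 95% interval -0.78 to 0.10) did not pass (adjusted p = 0.481). Its sign was the same under all 14 alternatives, from -0.48 to -0.21, with adjusted p from 0.356 to 0.838.

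Dok7, the gene of the adaptor that activates MuSK, gave different readings in its probe sets. The brighter, 1434812, read 608.9 and 592.7 on the control arrays, and the knockdown arrays read 521.8 and 640.8. There the control arrays lay between the knockdown arrays, with a difference of -0.05 (95% interval -0.40 to 0.30, adjusted p = 0.927). The dimmer, 1442869, read 60.6 and 40.3 on the control arrays, the second under background, and the knockdown arrays read 92.0 and 91.2. Those groups did not overlap, and the difference of 0.71 (SE 0.43) did not pass in the fit over 22893 probe sets (adjusted p = 0.462), in which 2.39% were called. A change of Dok7 in either direction thus depends on the probe set chosen, and neither passed.

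Rapsn, the rapsyn gene, read 1538.8 and 1651.0 on the control arrays, and the knockdown arrays read 1814.8 and 1779.9 (probe set 1449331). Both knockdown arrays were above both control arrays. The difference was small, 0.17 log2 units (SE 0.13, 95% interval -0.10 to 0.45, adjusted p = 0.597).

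Myog, the gene of myogenin, read 341.9 and 296.2 on the control arrays, and the knockdown arrays read 1656.7 and 1832.6. Its difference was 2.40 log2 units (limma adjusted p = 4.83e-07). In the same cultures it was 0.03 for Chrna1, 0.48 for Chrnb1, -0.38 for Chrng and -2.33 for Chrnd. The value of Chrnd rests on knockdown signals under background, and Chrng was close to background in both groups. A relation of these differences to that of Myog was not tested. Myod1 read 3284.4 and 3738.6 on the control arrays, and the knockdown arrays read 2548.5 and 3139.6 (log2 -0.31, adjusted p = 0.289). In bulk cultures a change in the number of cells that express a gene and a change in RNA per cell cannot be told apart.

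The genes whose pattern over the 4 arrays was most like that of Chrna1, by Euclidean distance between mean-centred log2 values, were Mcrs1, Naa40 and Rab31, at distances of 0.0047, 0.010 and 0.015 log2 units. Those most like Chrnd were Mmp23, Arhgap27 and Cacng2, at 0.673, 0.683 and 0.690. Like Chrnd, these 3 reached the test through their control arrays. Mmp23 and Arhgap27 were under background on both knockdown arrays and Cacng2 on 1, so their falls are bounds. Set against background, Mmp23 fell at least 2.34-fold (adjusted p = 0.0252), Arhgap27 at least 2.34-fold (adjusted p = 0.0498) and Cacng2 at least 2.97-fold (adjusted p = 0.0170). The calls of all 3 were lost without control replicate 1 (adjusted p = 0.129, 0.495 and 0.299), without the filter and without the variance trend. Mmp23 did not pass without control replicate 2 either (0.124), nor Cacng2 with quantile normalization (0.0522), and Arhgap27 did not pass in 9 of 13 alternatives. These likenesses rest on 4 arrays. The 3 genes like Chrnd were chosen by these same values, so their falls and adjusted p-values follow from that choice.

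Other genes of the junction were followed in a list of 69 symbols, of which 66 are on the array and 56 were tested. Limma called 0 higher and 1 lower, against 1.44% and 1.61% of all genes, and 9 (16.1%) had an unadjusted p under 0.05, against 15.0% of all genes. The median difference was 0.01 log2 units, as over all genes, and 29 of the 56 were positive. The gene that fell was Lamc1, which encodes the gamma 1 chain of laminins of the muscle basement membrane. It read 1297.1 and 1480.7 on the control arrays, and the knockdown arrays read 825.5 and 823.2 (log2 -0.74, SE 0.14, adjusted p = 0.0099), and 389.4 and 230.9 against 35.8 and 29.1 in its second probe set, where both knockdown arrays were under background. Without control replicate 2 Lamc1 did not pass (adjusted p = 0.0740), nor without the filter (0.0699) or the variance trend (0.258).

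By role, the basal lamina list, which also holds genes of membrane proteins such as Dag1 and Col13a1, gave that 1 call among 9 tested. The 20 genes of MuSK signalling and the cytoskeleton and the 10 of the anchoring scaffold gave 0. The 10 regulators of synaptic genes and the 7 of receptor assembly and glycosylation also gave 0. Of the 9 genes tested in the basal lamina list, 5 (55.6%) had an unadjusted limma p under 0.05, against 15.0% of all genes. In the other lists with tested genes the share was 5% to 14.3%. Among those 5, Lamc1 and Lama5 were lower and Nid2, Bgn and Dag1 higher. The medians of the lists lay between -0.13 for the regulators and 0.23 for the basal lamina. Among the genes tested, the largest differences without a call were those of Sntb2, Nid2 and Etv5. Sntb2, the beta 2 syntrophin gene, read 483.5 and 712.2 on the control arrays, and the knockdown arrays read 351.3 and 452.0 (log2 -0.54, adjusted p = 0.198), while its other probe sets gave -0.63, -0.56 and -0.28. It passed without control replicate 1 (adjusted p = 0.0371) and without knockdown replicate 2 (0.0187). Nid2, which encodes the basement membrane protein nidogen 2, read 569.9 and 517.7 on the control arrays, and the knockdown arrays read 778.9 and 802.9 (log2 0.53, adjusted p = 0.0862), and it passed with median centring (0.0428) and with the upper 40% of probe sets (0.0348). Etv5, an ETS factor gene, read 203.4 and 230.8 on the control arrays, and the knockdown arrays read 159.6 and 135.9 (log2 -0.51, adjusted p = 0.358), while its other probe sets gave -0.09 and -0.16. Ache, the gene of the enzyme that breaks down acetylcholine, read 17.6 to 45.6 and was above background on 1 array. Both channel genes on the array, the muscle calcium channel gene Cacna1s and the potassium channel gene Kcnn3, were under background on all 4. Of the genes too dim to be tested, 2 are named after their values were seen. Camk2b, which encodes a calmodulin-dependent kinase, read 44.8 and 19.2 on the control arrays, both under background, and the knockdown arrays read 112.5 and 54.4, at least 1.42-fold higher. Col13a1, a transmembrane collagen gene, read 8.6 and 13.5 on the control arrays and 36.5 and 61.3 under knockdown, with knockdown replicate 2 the only array above background.

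**Figure D3:**
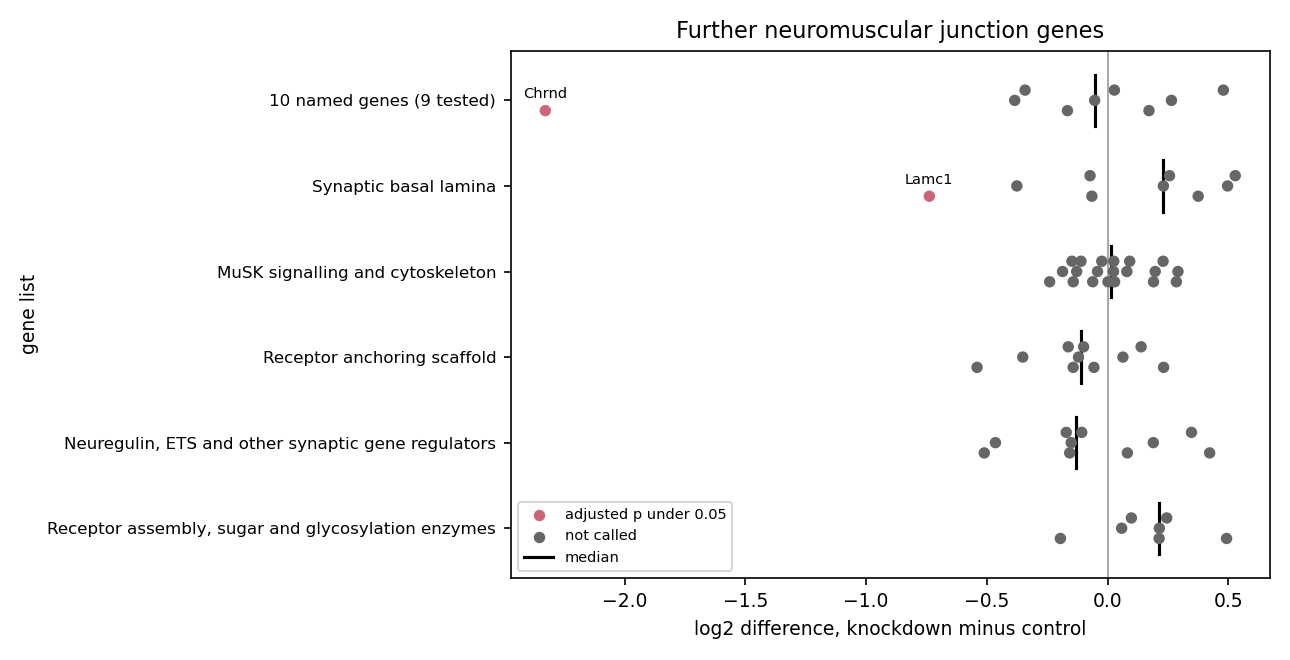
Log2 difference, knockdown minus control, of the 9 tested members (top row) and of the 56 further junction genes tested, split by role; each point is a gene, the black lines are medians and red marks an adjusted p under 0.05. Chrnd (-2.33) and Lamc1 (-0.74) are the only called genes, and the medians of the further lists lie between -0.13 and 0.23.

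The other nicotinic receptor subunits, known mainly from neurons, gave 0 calls among 6 tested of 10 on the array, against 3.05% of all genes. Of the 6, 0 had an unadjusted limma p under 0.05, against 15.0% of all genes. Chrna4 and Chrnb2 were above background on all 4 arrays. Chrna4 read 211.5 and 277.8 on the control arrays, and the knockdown arrays read 245.7 and 312.0 (log2 0.18, adjusted p = 0.783), and Chrnb2 read 108.2 and 126.4 on the control arrays, and the knockdown arrays read 127.3 and 101.0 (log2 -0.04, adjusted p = 0.975). The groups overlapped in all 6 tested, whereas they did not in 44.5% of all genes. Chrna7, too dim to be tested and named after its values were seen, read 65.6 and 85.5 on the control arrays, above background, and the knockdown arrays, under it, read 17.0 and 31.1, at least 1.28-fold lower.

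**Figure D4:**
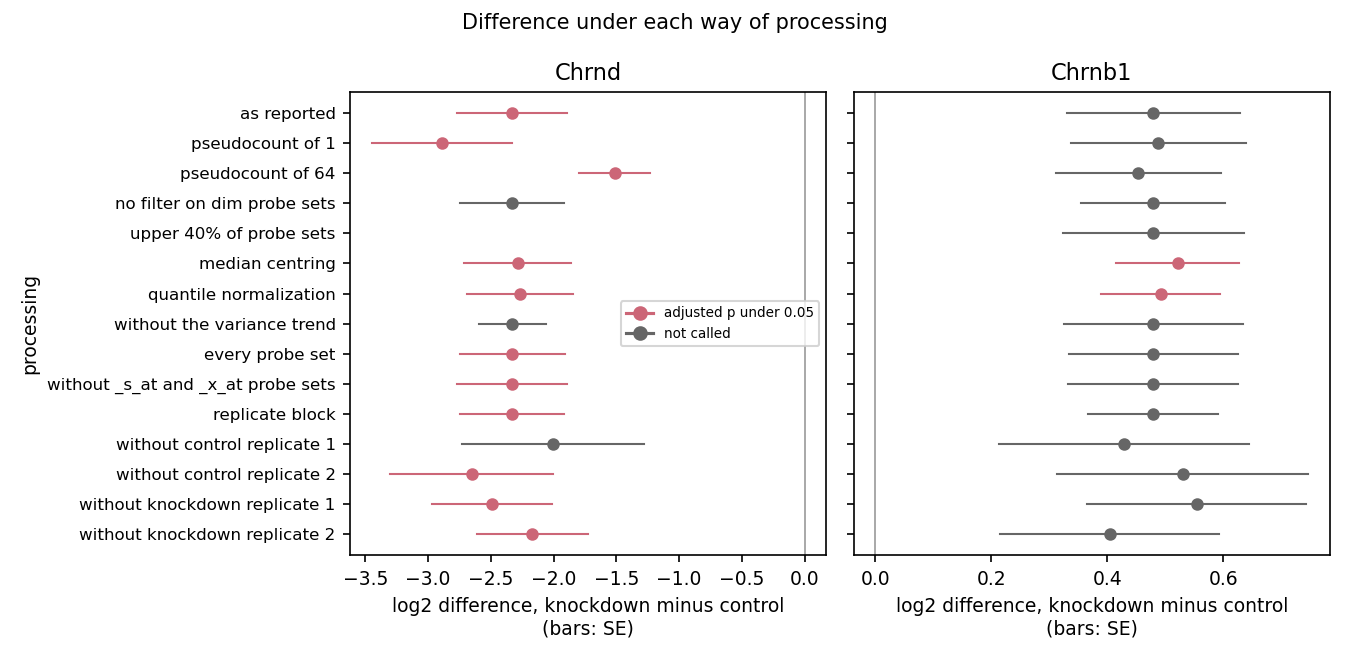
Log2 difference, knockdown minus control, of Chrnd (left) and Chrnb1 (right) as reported and under each alternative, with bars of 1 SE and red where the adjusted p is under 0.05; Chrnd has no value in the upper 40% of probe sets because it is dimmer than that limit. Chrnd lies between -2.89 and -1.51 and loses its call in 3 of 13 alternatives, and Chrnb1 lies between 0.40 and 0.55 and gains one in 2 of 14.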

How the data were processed

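RNA from 4 C2C12 cultures was hybridised to 1 array each, from 100 ng of total RNA per the labels. The deposited values are linear signal intensity per probe set, which the authors computed in GCOS by the MAS5 algorithm, as the submitters' processing notes list. Versions and scaling between arrays are not given in the sources used here, and the values were used as deposited. MAS5 subtracts mismatch signal, which makes dim values noisy. Probe sets were named from the array annotation, and 34741 of 34945 single-gene probe sets matched a RefSeq gene (GRCm38.p6) by identifier. Each gene was represented by its brightest probe set, the upper 60% of probe sets by mean log2(signal + 16) were kept, and knockdown minus control was fitted with limma 3.58.1 (eBayes with a variance trend) in R 4.3.3. The fit had 2 residual and 13.8 prior degrees of freedom. A two-sided exact permutation test of 2 against 2 cannot give a p under 0.333. Within a gene, "at least" folds put background in place of dimmer signals. The members and lists were chosen with earlier results of these data known. All members, called further genes, the 3 largest uncalled ones and nicotinic subunits above background throughout are named. So are the 3 genes most like Chrna1 and Chrnd. Named beyond that rule are Chrnd's neighbours, Myog, Myod1, Ache, Cacna1s, Kcnn3, Camk2b, Col13a1, Lama5, Bgn, Dag1, Chrna7, Sfmbt1 and single markers. The steps were tested on simulated data with independent normal noise and fixed shifts added to 200 genes. Those data held no difference in scaling between arrays and do not test single calls such as that of Chrnd. The 4 arrays limit the precision. Alternatives were another pseudocount, filter, scaling, variance model, probe set rule and replicate block, and leaving out each array.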

Additional observations from a re-analysis of the deposited data

How the results depend on the processing

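Musk, Agrn, Rapsn and Chrnb1 kept their sign under all 14 alternatives and Chrnd under the 13 that could test it. With 2 arrays a group, 1 array can decide a call, and genes near background (Chrng, Chrne, the dim probe sets of Agrn and Dok7) are limited by signal. Over the whole array, 185 genes higher and 207 lower became 23 and 32 without the filter, 285 and 322 with the upper 40%, 339 and 218 with median centring, which took the share of higher genes from 47.2% to 60.9%, and 0 and 0 without the variance trend (1501 at an unadjusted p under 0.05). Leaving out 1 array at a time gave 143 to 407 higher and 128 to 450 lower. Members called lower went from 1 to 0 without the filter, with the upper 40%, which left Chrnd untested, and without the variance trend (2 members at an unadjusted p under 0.05), and to 0 to 1 with 1 array left out, the 0 being without control replicate 1. Members called higher went from 0 to 1, Chrnb1, with median centring and with quantile normalization. Further junction genes called higher went from 0 to 2 with the upper 40%, median centring and the replicate block, to 1 with quantile normalization, and 0 to 1 with 1 array left out. Those called lower went from 1 to 0 without the filter and without the variance trend (5 further genes at an unadjusted p under 0.05), and 0 to 2 with 1 array left out. Signs of uncalled members turned as follows, and the cause was not tested: Chrna1 to -0.036 with quantile normalization and -0.050 to 0.11 with 1 array left out; Chrng from -1.14 to 0.37, Lrp4 from -0.36 to 0.028 and Dok7 from -0.20 to 0.091 with 1 array left out. Dok7 was 0.71 without probe sets shared between transcripts, where its other probe set stands for it. Deviations of the same-numbered arrays correlated at r = 0.0105 across genes. This single value over all genes does not settle whether the replicate numbers pair the arrays. With the replicate block 276 genes were higher and 270 lower, and Chrnd remained called (adjusted p = 0.0214). The block gave 2572 genes at an unadjusted limma p under 0.05, against 1933 as reported.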
